A study of Mus musculus with 4 samples.

Results

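The genes described here are 10 immediate early genes, *Fos*, *Fosb*, *Jun*, *Junb*, *Egr1*, *Atf3*, *Ier2*, *Nr4a1*, *Dusp1* and *Zfp36*, in the hearts of 8-week-old mice. They were taken by symbol from a table of 55401 genes, in which each symbol was found on 1 row. Heart RNA came from 2 wild-type and 2 *Ctcf* +/R567W (heterozygous) C57BL/6N mice, all aged 8 weeks, each mouse giving 1 library, called replicate 1 or 2 of its genotype. The heterozygous mice carried CTCF-R567W, a substitution made by CRISPR/Cas9 editing, on 1 *Ctcf* allele in every cell, and the wild-type mice carried no edit. The comparison asks how the transcripts of the adult heart differ when this chromatin-organising protein is altered. Sex, time of day and dissection are not given for single hearts in the sources used here.

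Immediate early genes are transcribed within minutes of a signal, without need of new protein synthesis. MAP kinases and protein kinase A pass the signal to factors already on the promoters, above all the serum response factor (SRF) with its partners at CArG boxes, and CREB at cAMP response elements (CRE). The mRNAs are short-lived, and many carry AU-rich elements in the 3′ untranslated region that mark them for decay. In heart muscle, members of the group are known to be induced by stretch, catecholamines and stress. FOS, FOSB, JUN, JUNB and ATF3 are leucine-zipper factors that bind DNA as dimers, and FOS and JUN proteins together form AP-1. EGR1 is a zinc-finger factor, NR4A1 an orphan nuclear receptor and IER2 a nuclear protein. DUSP1 and ZFP36 act as brakes, the first by dephosphorylating MAP kinases and the second by binding AU-rich elements and promoting mRNA decay.

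All 4 libraries showed heart muscle RNA, with the 8 cardiomyocyte markers detected in each (*Myh6* between 9133 and 10554 scaled TPM). TPM are transcript levels per length on a fixed total for each library, and scaled TPM are TPM divided by a median-of-ratios factor for each library, which lay between 0.818 and 1.26. Correlation between libraries over the 10036 tested genes lay between 0.966 and 0.981. *Ctcf* itself had 6.12 and 6.02 scaled TPM (wild-type) against 7.51 and 5.76 (heterozygous), where replicate 1 is always given before replicate 2, and TPM do not show from which allele a read came. TPM keep no read depth, so the counting error of a low value is unknown.

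The immediate early genes had low TPM in every heart, although most ranked above the middle of the detected genes. *Dusp1* was the highest, at a mean of 9.43 scaled TPM over the 4 hearts, followed by *Ier2* at 4.49 and *Nr4a1* at 3.40. *Junb* (2.37), *Jun* (1.85), *Zfp36* (1.76) and *Egr1* (1.68) formed a middle group. *Atf3* (0.635), *Fos* (0.335) and *Fosb* (0.0378) lay at the bottom. The ranges over the 4 hearts did not overlap between *Dusp1* and *Ier2*, between *Egr1* and *Atf3*, or between *Fos* and *Fosb*. All other neighbours in this order had overlapping ranges. Among the 24424 genes with a value above 0 in at least 1 library, *Dusp1* stood at the 89.0th percentile of mean TPM and *Egr1* at the 66.4th. The genes listed between them lay between these percentiles. *Atf3* stood at the 53.7th, *Fos* at the 47.0th and *Fosb* at the 24.9th. *Fos*, *Fosb* and *Atf3* had a mean under 1 TPM and were left out of the genotype test, so that 7 of the 10 genes were tested.

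**Figure D1:**
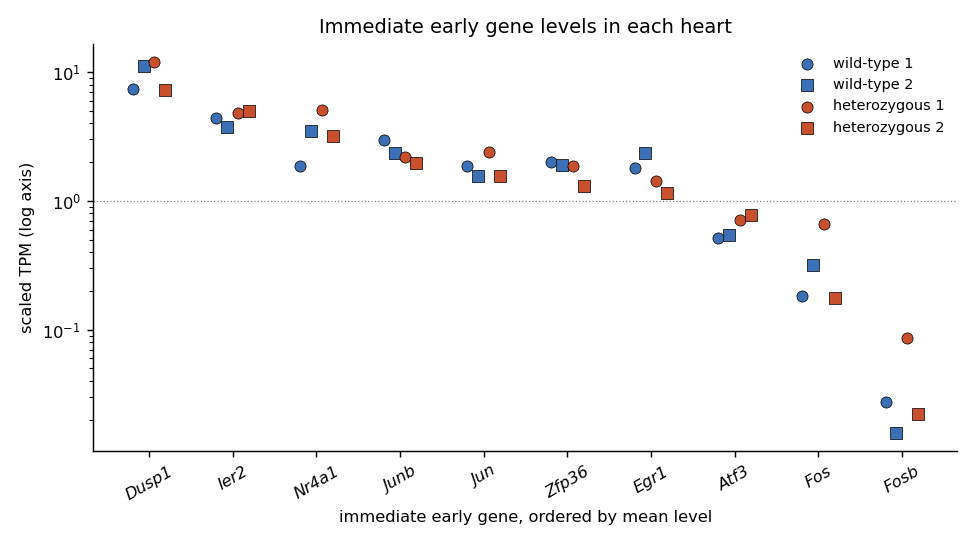
Scaled TPM (log axis) of the 10 immediate early genes in each of the 4 hearts, ordered by mean level, with blue for wild-type, red for heterozygous, circles for replicate 1 and squares for replicate 2. The dotted line marks 1 scaled TPM, and *Atf3*, *Fos* and *Fosb* lie under it in every heart.

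The median span of the 10 genes in the GENCODE annotation of mm10 was 4698.5 bases against 23781 for the 9465 tested genes with a coding transcript. This span runs between the outermost bounds of all annotated transcripts of a gene. By it *Dusp1* (56539) and *Atf3* (47744) are longer than that median. However, promoter motif windows of both (chr17:26508597-26508626 and chr1:191183323-191183352) lie inside these bounds, so single transcripts can span less. The principal transcripts of the 10 genes had a median of 3 exons against 10. *Jun*, *Junb* and *Ier2* have a single exon. *Junb* (chromosome 8, 84974484 to 84978718) and *Ier2* (chromosome 8, 84661331 to 84662852) lie on the same chromosome, as do *Fosb* (chromosome 7, 19302696 to 19310051) and *Zfp36* (chromosome 7, 28376784 to 28380253). Median transcript length was closer to that of the other genes, at 2330.5 against 2892 bases.

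The pentamer ATTTA of AU-rich elements was found in the 3′ untranslated region of 9 of the 10 genes, all but *Ier2*, and in 64.7% of the tested genes with a coding transcript. The stricter nonamer TTATTTATT, which contains the pentamer, was found in 3 of the 10, *Fos*, *Dusp1* and *Zfp36*, and in 6.44% of the tested genes. The sites are shown because they are the element that ZFP36 is known to bind, and *Zfp36* carries one in its own transcript. Each line gives 30 bases of the GENCODE transcript, 5′ to 3′, with the nonamer in capitals. A match is a description of the letters and does not show binding.
*Fos*, base 655 of 815 in the 3′ untranslated region: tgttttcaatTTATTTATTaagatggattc
*Dusp1*, base 103 of 690: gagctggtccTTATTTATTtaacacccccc
*Dusp1*, base 392 of 690: gtttttacctTTATTTATTtttgtgtaggt
*Zfp36*, base 589 of 774: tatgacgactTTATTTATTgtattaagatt

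Promoter windows of 300 bases around the RefSeq start site (GRCm38.p6) were given for 8 of the 10 genes, all but *Egr1* and *Ier2*. They were searched on both strands for the CArG box, the CRE (TGACGTCA), its core TGACG, which the CRE contains, and the TATA box (TATAAA). The CRE core was present in 6 of the 8 windows, those of *Fos*, *Fosb*, *Junb*, *Atf3*, *Nr4a1* and *Dusp1*, and in 36.9% of the 7771 tested genes with a window (23.0% of all 27025 genes with one). *Nr4a1* held 4 cores, all on the opposite strand. A complete CRE was present in *Dusp1* only, against 3.55% of the tested genes, and a CArG box in *Zfp36* only, against 1.79%. A TATA box was found in *Fos* and *Junb*, against 8.90% of tested genes. That of *Fos* began 33 bases before the RefSeq start site, whereas the pattern in *Junb* began at the start site itself. The *Jun* window held none of these motifs. Only these short windows and exact patterns were searched. A motif farther upstream, or a CArG box that departs from the pattern, would not be found, so absence from a window does not show that a gene lacks the element. The windows below are shown because the CArG box and the CRE are the elements of signal-driven transcription named above, as 30 bases on the strand of the gene, 5′ to 3′, with the motif in capitals.
*Zfp36*, CArG box (minus strand, chr7:28379267-28379296): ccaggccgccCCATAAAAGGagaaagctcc
*Dusp1*, CRE (minus strand, chr17:26508597-26508626): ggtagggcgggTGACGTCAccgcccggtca
*Fos*, CRE core (plus strand, chr12:85473812-85473841): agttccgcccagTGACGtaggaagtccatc
*Fosb*, CRE core (minus strand, chr7:19310088-19310117): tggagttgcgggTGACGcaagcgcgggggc
*Junb*, CRE core (minus strand, chr8:84978837-84978866): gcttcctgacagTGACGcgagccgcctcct
*Nr4a1*, CRE core on the opposite strand (plus strand, chr15:101266794-101266823): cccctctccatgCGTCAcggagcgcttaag

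**Figure D2:**
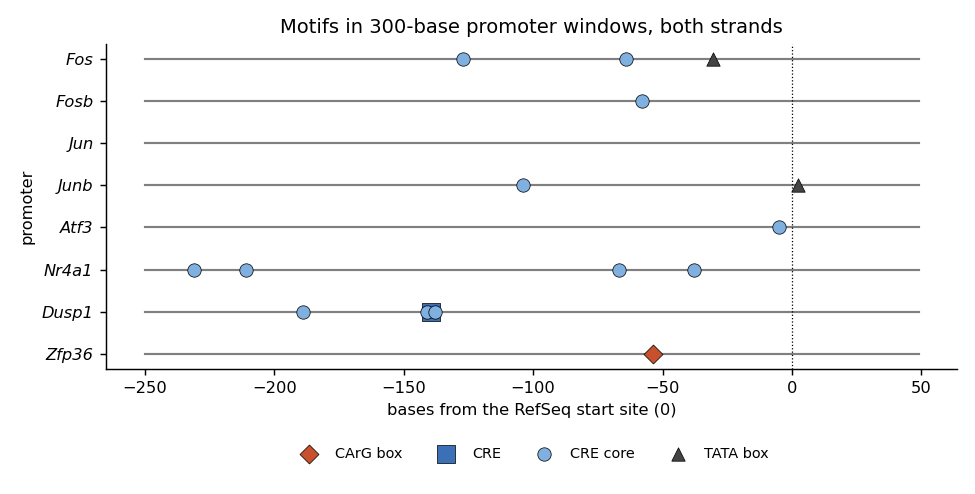
Position of each motif in bases from the RefSeq start site (0) in the 300-base windows of 8 immediate early genes, with both strands searched and each symbol at the middle of its motif. The *Zfp36* CArG box begins 58 bases and the *Fos* CRE core shown above 66 bases before the start, whereas the *Jun* window is empty.

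None of the 7 tested immediate early genes was called different between the genotypes (limma on log2(scaled TPM + 1), two-sided, adjusted p under 0.05 over all 10036 tested genes). At this threshold 0.0199% of all tested genes were called. *Egr1* alone of the 7 had an unadjusted p under 0.05, as had 12.2% of all tested genes. The heterozygous mean was lower for 3 of the 7, *Egr1*, *Junb* and *Zfp36*, against 50.7% of all tested genes, and higher for *Nr4a1*, *Ier2*, *Jun* and *Dusp1*, and the median log2 difference of the 7 was 0.03 beside 0.00 for all tested genes. Both hearts of one genotype lay apart from both of the other for 4 of the 7, against 47% of all tested genes, with 3 lower (23.3% of all) and 1 higher (23.7%). With 2 hearts a genotype, an exact permutation test of a single gene cannot give a two-sided p under 0.333. In whole tissue, fewer cells of a type and less RNA per cell cannot be told apart.

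*Egr1* (chromosome 18, 34859823 to 34864984) had the most negative genotype difference of the 7. It stood at 1.81 and 2.36 scaled TPM (wild-type) against 1.42 and 1.15 (heterozygous). The genotypes did not overlap, the heterozygous hearts being the lower, and the highest heart had 2.05 times the lowest. The means were 2.08 ± 0.386 and 1.29 ± 0.189 (SD, n = 2 each), a log2 difference of -0.43 (standard error 0.16, adjusted p = 0.372 from limma). This difference was larger than that between the 2 hearts of either genotype, at 0.26 and 0.17 on the same scale.

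*Junb* had 3.00 and 2.36 scaled TPM (wild-type) against 2.18 and 1.96 (heterozygous). The genotypes did not overlap, although wild-type replicate 2 lay closer to the heterozygous hearts than to its own replicate. The log2 difference was -0.26 (standard error 0.15, adjusted p = 0.499 from limma), beside a difference of 0.25 between the 2 wild-type hearts. Annotated exons of *Junb* overlap those of *Prdx2*, a peroxiredoxin gene on the opposite strand with 74.0, 65.3, 54.4 and 88.3 scaled TPM in the same order of hearts. Whether reads were counted by strand is not given in the sources used here, so reads of the overlap cannot be assigned with certainty, and *Prdx2* overlapped between the genotypes.

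*Zfp36* had 1.99 and 1.91 scaled TPM (wild-type) against 1.86 and 1.30 (heterozygous). The genotypes did not overlap, but heterozygous replicate 1 lay just under wild-type replicate 2. The log2 difference of -0.20 (standard error 0.16, adjusted p = 0.599 from limma) was smaller than the 0.32 that separated the heterozygous hearts. Thus for *Zfp36* the lower mean came mainly from heterozygous replicate 2.

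*Ier2* was the tested gene that lay higher in both heterozygous hearts after scaling. It had 4.42 and 3.75 scaled TPM (wild-type) against 4.80 and 5.004 (heterozygous), a log2 difference of 0.22 (standard error 0.14, adjusted p = 0.540 from limma). The order turned in the deposited TPM, at 4.81 and 4.73 TPM (wild-type) against 3.92 and 4.52 (heterozygous). Its direction therefore rested on the scaling.

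*Nr4a1* (chromosome 15, 101254269 to 101274795) had the most positive difference and a wide spread. Its values were 1.86 and 3.48 scaled TPM (wild-type) against 5.06 and 3.19 (heterozygous), so that heterozygous replicate 2 lay between the wild-type hearts. The means were 2.67 ± 1.15 and 4.13 ± 1.33 (SD, n = 2 each), a log2 difference of 0.49 (standard error 0.26, adjusted p = 0.472 from limma). The wild-type hearts alone differed by 0.65.

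*Dusp1* (chromosome 17, 26505590 to 26562128) varied between hearts and had almost equal genotype means. It stood at 7.39 and 11.2 scaled TPM (wild-type) against 11.9 and 7.28 (heterozygous), a log2 difference of 0.03 (standard error 0.27, adjusted p = 0.966 from limma). Exons annotated to *Dusp1* overlap those of *Ergic1* on the opposite strand, which had between 2.04 and 3.47 scaled TPM. *Jun* (chromosome 4, 95049034 to 95052222) had 1.86 and 1.56 (wild-type) against 2.41 and 1.57 (heterozygous), a log2 difference of 0.13 (standard error 0.18, adjusted p = 0.771 from limma). After scaling, *Jun* was highest in heterozygous replicate 1, and *Dusp1* was high both there and in wild-type replicate 2.

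The genes under 1 TPM were at the edge of what the table resolves, as it is rounded to 2 decimals. *Fos* (chromosome 12, 85473890 to 85477273) was listed at 0.20 and 0.40 TPM (wild-type) against 0.54 and 0.16 (heterozygous), with heterozygous replicates 1 and 2 as the highest and the lowest. *Fosb* was listed at 0.03, 0.02, 0.07 and 0.02 TPM in the same order. *Atf3* (chromosome 1, 191170296 to 191218039) had 0.515 and 0.540 scaled TPM (wild-type) against 0.709 and 0.775 (heterozygous), which did not overlap, whereas the deposited values of 0.56, 0.68, 0.58 and 0.70 TPM did. In a limma fit without a filter on low values, over 24424 genes, the adjusted p was 0.783 for *Fos*, 0.712 for *Fosb* and 0.665 for *Atf3*.

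**Figure D3:**
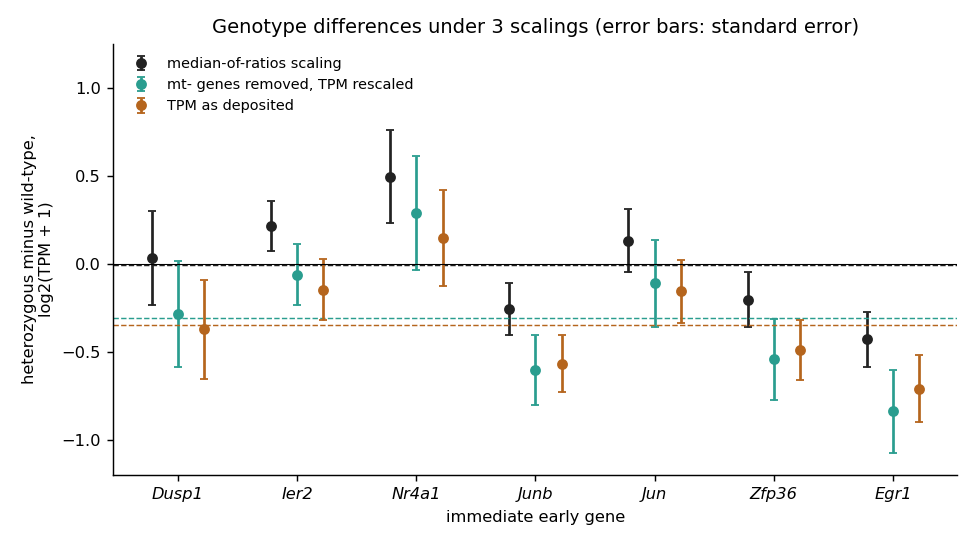
Heterozygous minus wild-type difference on the log2(TPM + 1) scale with its standard error for the 7 tested immediate early genes under 3 scalings, with dashed lines at the median of all tested genes under each. *Egr1*, *Junb* and *Zfp36* lie under 0 and *Nr4a1* above 0 in all 3, while *Ier2*, *Jun* and *Dusp1* change sides.

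The scaling shifted all genes together. With TPM as deposited the median log2 difference of all tested genes was -0.35, and that of the 7 immediate early genes was -0.37. Of the 7, 6 had a lower heterozygous mean, against 90.6% of all tested genes. *Egr1*, *Junb*, *Zfp36* and *Ier2* were lower in both heterozygous hearts, against 67.8%. No immediate early gene was called (0.13% of all), and 3 of the 7 had an unadjusted p under 0.05, against 33.8%. Relative to the median of all genes on this scale, *Egr1* (-0.71), *Junb* (-0.57) and *Zfp36* (-0.49) lay below it, *Nr4a1* (0.15), *Ier2* (-0.15) and *Jun* (-0.16) above it, and *Dusp1* (-0.37) close to it. With genes of the mitochondrial genome (mt-) removed and TPM rescaled, the median of all genes was -0.31 and that of the 7 was -0.29. Mitochondrial genes had held between 61.1% and 68.6% of the TPM. None of the 7 was called (0.14% of all), 3 had an unadjusted p under 0.05 (29.6% of all), and *Egr1*, *Junb* and *Zfp36* were lower in both heterozygous hearts (58.9% of all).

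Ratios between genes of the same library do not depend on its scaling, and were added after the values were seen. Of the 21 ratios among the 7 tested genes, 12 did not overlap between the genotypes, against 46.6% of the ratios between all pairs of tested genes above 0 in every library. *Egr1* took part in 5 of these and was on the lower side in each. Ratios that share a gene reuse its values, so the 5 are not separate observations. The *Egr1* to *Nr4a1* ratio was 0.975 and 0.677 (wild-type) against 0.280 and 0.361 (heterozygous). The *Jun* to *Junb* ratio was 0.620 and 0.660 against 1.11 and 0.802. The *Nr4a1* to *Dusp1* ratio was 0.251 and 0.312 against 0.426 and 0.438, although each of the 2 genes varied strongly between hearts. In contrast, the *Jun* to *Ier2* ratio overlapped, at 0.420 and 0.414 against 0.503 and 0.314.

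Differences between hearts of the same genotype were as large as those between the genotypes for many of these genes. In 4 of the 7, *Jun*, *Nr4a1*, *Dusp1* and *Zfp36*, the larger of the 2 within-genotype differences exceeded the difference between the genotype means. A difference between single hearts varies more than one between means of 2, and the same share over all tested genes was not computed. This count alone therefore does not set the immediate early genes apart from other genes. The median absolute log2 difference between the wild-type hearts was 0.25 for the 7 genes and 0.13 for all tested genes, and between the heterozygous hearts it was 0.32 and 0.21. For *Nr4a1* the difference between the wild-type hearts exceeded that of 97.5% of all tested genes, and for *Dusp1* that of 96.1%. Between the heterozygous hearts the same shares were 90.0% and 94.3%. At the other end, *Ier2* in the heterozygous hearts exceeded 13.5% and *Zfp36* in the wild-type hearts 18.5%.

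**Figure D4:**
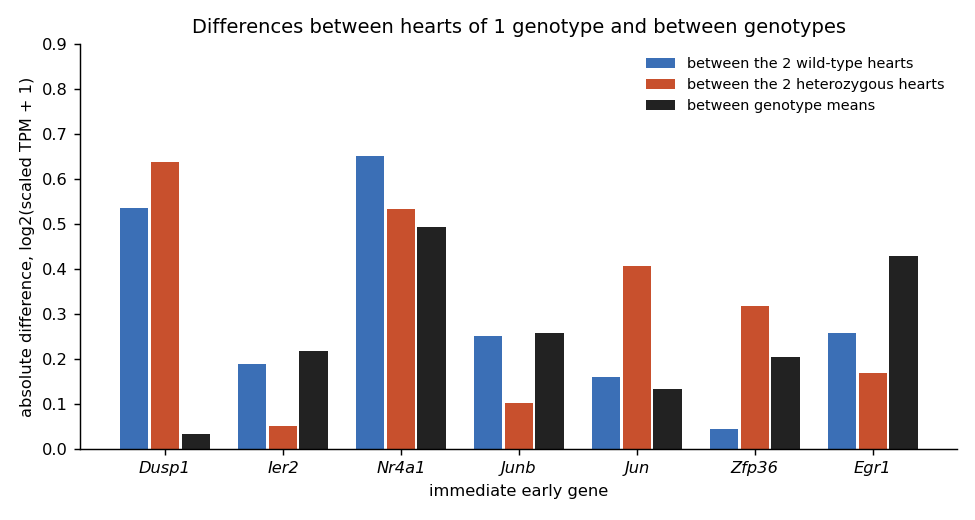
Absolute difference on the log2(scaled TPM + 1) scale between the 2 wild-type hearts (blue), between the 2 heterozygous hearts (red) and between the genotype means (black) for each tested immediate early gene. For *Dusp1* both within-genotype bars exceed 0.5 while the genotype bar is at 0.03. The genotype bar is the tallest for *Egr1* and, by a smaller margin, for *Junb* and *Ier2*.

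After scaling, heterozygous replicate 1 was the heart with the highest value for 5 of the 10 genes, *Fos*, *Fosb*, *Jun*, *Nr4a1* and *Dusp1*. In the deposited TPM only *Fos* and *Fosb*, both under 1 TPM, were highest there. *Jun* was then highest in wild-type replicate 1 (2.02 against 1.97 TPM in heterozygous replicate 1). *Nr4a1* (4.39 against 4.14) and *Dusp1* (14.05 against 9.72) were highest in wild-type replicate 2. The share of all tested genes that were highest in this heart was not computed. Heterozygous replicate 1 exceeded heterozygous replicate 2 in 8 of the 10, all but *Atf3* and *Ier2*, where 48.7% of all tested genes did so. *Fos*, *Fosb* and *Atf3* were too low to be among the tested genes. For *Fos* the ratio between these 2 hearts was 3.73. After scaling, *Egr1*, *Junb* and *Zfp36* were highest in a wild-type heart, and *Atf3* and *Ier2* in heterozygous replicate 2. Some heat shock genes were also highest in heterozygous replicate 1, and others were not. *Hspa8*, *Hsp90ab1*, *Hspb1*, *Hspd1* and *Hspe1* were highest in wild-type replicate 2, and *Hsf1* in heterozygous replicate 2. *Hsph1*, a chaperone of the HSP110 family, had 5.31 and 4.28 scaled TPM (wild-type) against 28.05 and 7.55 (heterozygous), and *Dnajb1*, an HSP40 co-chaperone, had 1.05 and 1.49 against 2.98 and 1.51. The inducible HSP70 genes *Hspa1a* and *Hspa1b* were under 0.5 scaled TPM in every heart, and were also highest in heterozygous replicate 1 (0.489 and 0.440). The summed level of the 13 heat shock genes was 323.1 and 393.1 against 385.6 and 329.2, led by *Hspa8*, *Hsp90ab1* and *Hspb1*, and did not single out that heart. *Hsph1* and the genes outside the most abundant of the list were picked after their values were seen, and their part in the result was not tested.

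Other inducible early genes lay on both sides. Of 50 genes of this kind 29 were tested and 0 were called by limma, 15 having a lower and 14 a higher heterozygous mean, with a median log2 difference of -0.02. Of these 29, 5 had an unadjusted p under 0.05, against 12.2% of all tested genes. The most abundant were *Id1* and *Id3*, inhibitors of helix-loop-helix factors, and *Mcl1*, an anti-apoptotic BCL2 relative. *Id1* had 20.9 and 15.9 scaled TPM (wild-type) against 23.3 and 23.5 (heterozygous) (log2 difference 0.35, adjusted p = 0.467 from limma). With TPM as deposited the *Id1* difference was -0.078. *Id3* had 15.1 and 12.7 against 14.6 and 17.9, and *Mcl1* had 10.7 and 12.0 against 10.5 and 11.2. Close relatives of the 10 genes covered a like range. *Zfp36l1* (between 4.97 and 5.40 scaled TPM) and *Zfp36l2* (between 3.99 and 4.42) had higher levels than *Zfp36*, and *Jund* (between 2.58 and 3.04) a higher level than *Jun*. Others were low, with *Egr3* between 0.248 and 0.440, *Nr4a2* between 0.331 and 0.612 and with *Egr4* listed at 0 in every heart. *Egr2* was listed highest in wild-type replicate 1, at 0.570 scaled TPM, beside values between 0.0367 and 0.103 in the other hearts.

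The regulators upstream of the group were detected and none was called. Among *Srf* and its cofactors 5 of 7 were tested, with 3 lower and 2 higher and a median log2 difference of -0.06. *Srf* itself had 3.81 and 3.85 scaled TPM (wild-type) against 2.40 and 3.79 (heterozygous) (log2 difference -0.26, adjusted p = 0.574 from limma), without overlap, although heterozygous replicate 2 lay just under the wild-type hearts. *Elk4*, a ternary complex factor, was the most abundant of this list at 10.1 and 12.1 against 9.91 and 12.4. All 8 genes of the CREB family and its coactivators were tested, 3 lower and 5 higher, with a median of 0.18. *Crtc2*, a CREB coactivator, had 9.57 and 8.49 against 12.1 and 12.6 scaled TPM (log2 difference 0.41, adjusted p = 0.372 from limma), whereas *Creb1* had 1.51 and 1.43 against 1.21 and 0.830 (log2 difference -0.29, adjusted p = 0.463). With TPM as deposited the difference was 0.007 for *Crtc2* and -0.54 for *Creb1*. *Creb1*, the least abundant of this list, was named after its values were seen.

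Of 27 MAP kinase cascade genes 23 were tested, 10 lower and 13 higher, with a median of 0.08. *Mapk12*, the p38-gamma kinase of striated muscle, was among the 3 most abundant and had 24.1 and 20.8 scaled TPM (wild-type) against 33.5 and 38.4 (heterozygous) (log2 difference 0.66, adjusted p = 0.335 from limma). *Araf*, a kinase at the head of the cascade, had 34.1 and 33.3 against 30.1 and 32.9. Of 12 dimer partners of AP-1 proteins 7 were tested, 4 lower and 3 higher (median -0.03), led by *Atf4* at 12.2 and 12.5 against 11.7 and 13.7. Of 9 other MAP kinase phosphatases, which share the substrates of DUSP1, 3 were tested, 1 lower and 2 higher (median 0.07), and *Dusp7* was the most abundant at 4.10 and 4.35 against 3.82 and 5.21.

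**Figure D5:**
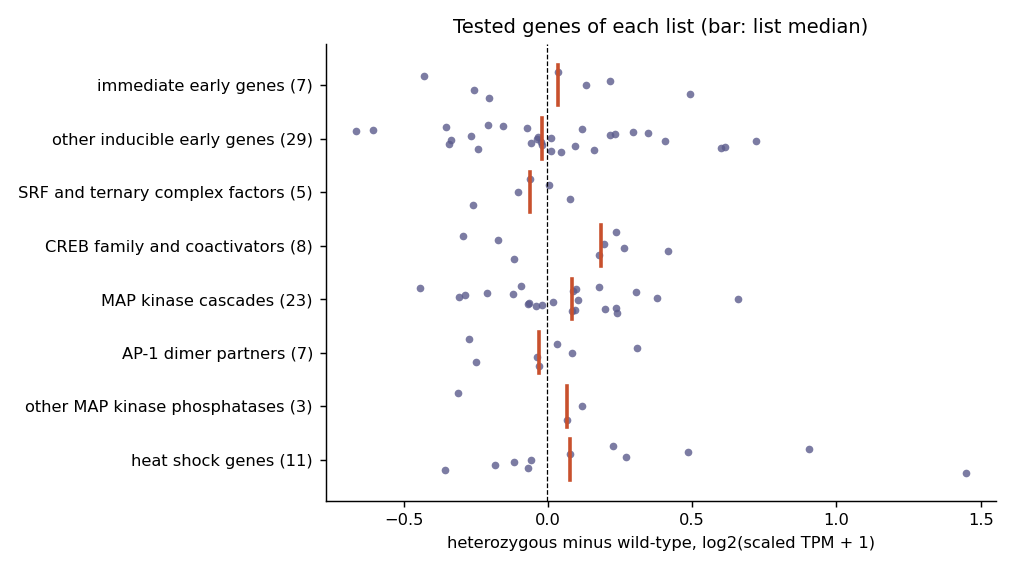
Heterozygous minus wild-type difference on the log2(scaled TPM + 1) scale for each tested gene (points) of the immediate early genes, related lists and heat shock genes, with the number tested in parentheses, the list median as a red bar and the median of all tested genes as a dashed line. The immediate early genes lie on both sides of 0, and *Hsph1*, at 1.45, is the point farthest to the right.

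Markers of other cell types and states were read in the same libraries. The 5 atrial markers, among them *Nppa* and *Myl7*, summed to 806.4 and 2355 scaled TPM (wild-type) against 1919 and 3284 (heterozygous), with wild-type replicate 1 the lowest for all 5 and *Bmp10* listed at 0 there. The lowest *Nr4a1* value was in the same heart, and *Dusp1* was lower there than in wild-type replicate 2. Heterozygous replicate 2, with the highest atrial sum, had the lowest *Dusp1* and less *Nr4a1* than wild-type replicate 2. The 6 erythroid markers summed to 929.8 and 987.0 against 965.4 and 2120, highest in heterozygous replicate 2. Endothelial markers summed to between 289.3 and 370.8, fibroblast markers to between 60.0 and 90.8, mural markers to between 69.9 and 91.7 and macrophage markers to between 24.9 and 34.1, with no marker of these lists listed at 0 in every heart. Lymphocyte, neutrophil and adipocyte markers summed to at most 2.10, 2.58 and 0.579, and *Ly6g* and *Retnlg* were listed at 0 throughout. None of the marker genes was called, and their part in the values of the immediate early genes was not tested.

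Genes that respond to glucocorticoids and genes of the circadian clock bear on the state of the animals. Of 13 glucocorticoid-responsive genes 10 were tested, 6 lower and 4 higher, with 0 called by limma and 4 at an unadjusted p under 0.05, against 12.2% of all tested genes. The most abundant were *Mt1* (81.4 and 89.1 against 67.5 and 92.4 scaled TPM), *Sgk1* (8.10 and 8.76 against 10.9 and 8.50) and *Mt2* (4.403 and 9.64 against 5.43 and 7.71), each overlapping between the genotypes. The 4 at an unadjusted p under 0.05 were named after their values were seen. They did not overlap, which their choice by p makes likely, against 47% of all tested genes. *Pdk4*, a pyruvate dehydrogenase kinase gene, had 13.9 and 7.78 against 2.37 and 1.34 scaled TPM (log2 difference -2.02, adjusted p = 0.174 from limma). *Klf9* had 3.32 and 3.20 against 2.30 and 1.95, *Klf15* had 4.63 and 4.22 against 7.07 and 7.16, and *Per1*, also a clock gene, had 1.68 and 1.61 against 2.52 and 2.48. Of 17 clock genes 14 were tested, 6 lower and 8 higher, with 0 called and 2, *Per1* and *Ciart*, at an unadjusted p under 0.05. *Dbp*, a clock output gene with a strong daily rhythm, had 94.9 and 52.7 scaled TPM (wild-type) against 43.0 and 125.2 (heterozygous), so that wild-type replicate 2 and heterozygous replicate 1 were low together. *Tef* (61.3 and 50.0 against 46.0 and 41.2) and *Nr1d2* (43.8 and 40.7 against 38.5 and 32.0), the next most abundant, were lowest in heterozygous replicate 2, and *Ciart* (2.02 and 1.17 against 2.45 and 4.36) was highest there. *Dusp1* was higher in the hearts with low *Dbp*, whereas *Tef* and *Nr1d2* did not set those hearts apart. Among less abundant clock genes, named after their values were seen, some were lower in those hearts after scaling and others were not. *Nr1d1* (11.1 and 8.20 against 5.81 and 8.83) and *Per3* (10.2 and 8.99 against 6.17 and 9.08) were lower there, while *Clock* and *Cry2* were not. The part of time of day in these values was not tested.

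The 5 tested genes whose pattern over the 4 hearts came closest to the mean of the 7 immediate early genes were *Tgs1*, *Josd1*, *Med7*, *Rnf44* and *Rap1gds1*, at Euclidean distances between 0.0128 and 0.0184 on the centred log2 scale. The mean pattern itself was shallow, at -0.06 and 0.06 (wild-type) against 0.15 and -0.15 (heterozygous), and the 7 genes lay between 0.23 and 0.65 from it.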

How the data were processed

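The authors trimmed reads with Trim Galore, aligned them to mm10 with STAR and quantified genes with RSEM, per the labels and the methods of the study, and deposited TPM values per gene, rounded to 2 decimals. The annotation release and the use of strand are not given in the sources used here. DESeq2, which the authors ran on counts, was not repeated, since TPM are not counts and keep no depth.

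Each library was divided by its median-of-ratios factor over the 9970 genes above 0 in every library with a mean of at least 1 TPM. A pseudocount of 1 was added, and for the 10036 genes whose mean reached 1 TPM the log2 values went into limma (3.58.1, R 4.3.3; lmFit, eBayes with trend, two-sided, Benjamini-Hochberg over all tested genes). Fold changes on the log2(TPM + 1) scale understate the change of low genes. Replicates are separate mice. Of the identifiers, 55141 matched GENCODE (mm10, without version). Promoters are from RefSeq (GRCm38.p6), where 8 of the 10 symbols matched. Lists other than the 10 genes name up to 3 of their most abundant tested genes (some are not reported here), and further names were chosen after values were seen. The genes and lists were chosen with earlier results of these data known. The script was tested on simulated data. Python (3.11.15) with pandas (2.3.3) served for tables.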

Additional observations from a re-analysis of the deposited data

How the results depend on the processing

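No immediate early gene was called by limma under any of the 13 alternatives. Between 0 and 3 of the tested ones had an unadjusted p under 0.05. The number of all genes called was 2, and became 13 (11 lower, 2 higher) with TPM as deposited, 14 (12 lower, 2 higher) with mt- genes removed, 4 with 0.1 as pseudocount, 0 with low genes kept in (945 lower and 1189 higher at an unadjusted p under 0.05) and between 11 and 15 with a library left out. The median log2 difference of the tested immediate early genes, 0.03, changed to -0.37 for the deposited TPM and to -0.29 after removal of mt- genes, and lay between -0.29 (without heterozygous replicate 1) and 0.19 (without heterozygous replicate 2) with a library left out. With these 2 scalings the difference turned for *Jun* (-0.16 and -0.11), *Ier2* (-0.15 and -0.063) and *Dusp1* (-0.37 and -0.29). With a library left out, that of *Jun* lay between -0.072 and 0.34 and that of *Dusp1* between -0.29 and 0.35, with the lowest value of each without heterozygous replicate 1. *Egr1* (-0.55 to -0.29), *Junb* (-0.37 to -0.13), *Zfp36* (-0.37 to -0.05) and *Nr4a1* (0.17 to 0.80) kept their direction there and under each other alternative in which they were tested, but the unadjusted p of *Egr1* passed 0.05 without wild-type replicate 2, without heterozygous replicate 2 and with low genes kept in. A block for the replicate number called 10 genes, none an immediate early gene. Deviations of same-numbered libraries correlated at 0.101, and the sources used here do not say whether the numbers pair the mice. The left-out fits assume that the lone heart varies like the other genotype. Depth is unknown, which limits the genes under 1 TPM most.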

Other observations

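Among the other inducible early genes, the 5 with an unadjusted p under 0.05 are named here after their values were seen. *Klf2*, a Krüppel-like factor gene known to respond to blood flow in endothelium, had 4.18 and 4.94 scaled TPM (wild-type) against 9.24 and 7.15 (heterozygous) (log2 difference 0.72, adjusted p = 0.308 from limma). *Plk3*, a stress-responsive kinase gene, had 1.51 and 1.40 against 2.94 and 2.57 (0.61, adjusted p = 0.290). *Ppp1r15a*, which encodes GADD34, a phosphatase subunit of the stress response, had 1.99 and 2.53 against 3.96 and 3.90 (0.60, adjusted p = 0.318). *Gadd45a*, a growth arrest gene, had 3.03 and 2.54 against 1.48 and 1.48 (-0.61, adjusted p = 0.300), and its relative *Gadd45b* had 2.77 and 1.29 against 0.893 and 0.808 (-0.67, adjusted p = 0.372). The genotypes did not overlap for these 5, which their choice by p makes likely, against 47% of all tested genes. With TPM as deposited *Klf2*, *Plk3* and *Ppp1r15a* remained higher (0.34, 0.32 and 0.26) and *Gadd45a* and *Gadd45b* lower (-0.90 and -0.91).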
